A study of Mus musculus with 5 samples.

Results

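Ide, which encodes the insulin-degrading enzyme, and 6 genes beside it on mouse chromosome 19 (Fgfbp3, Btaf1, Cpeb3, Kif11, Hhex and Exoc6) were examined in RNA from sorted bone marrow cells. These were 7 of the 24399 genes in the count table. Ide was chosen by its difference between the KO-titled and WT-titled libraries, so that difference is described without a test, and the other 6 were chosen for their place next to it. The cells were LSK cells, which lack lineage markers and carry Sca1 and cKit, the fraction of marrow that holds blood-forming stem cells and early progenitors. The series compared 3 libraries titled KO with 2 titled WT, all from C57BL/6 mice, and its design text gives an age of 12 months. The titles carry the prefix AIDTET, and the labels do not say what TET refers to. The genotype field gives Aid+/- for the KO-titled libraries and wild type for the WT-titled ones, while the design text names wild-type, heterozygous and homozygous germ line Aid knockout mice. The titles and the genotype field thus differ on what the first group is, so the groups are called KO-titled and WT after the titles. The labels give no substrain of C57BL/6. Nor do they say whether each library is its own animal; a p-value therefore reflects the spread among these 5 libraries, which may be technical.

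IDE is a zinc metalloprotease of the M16 family that cuts insulin, amyloid beta and other short peptides and is made in most tissues. A copy-number gain that includes Ide and Fgfbp3 is known to occur in some C57BL/6J mice. The copy number of the locus was not analysed here, and Aid genotype and any inherited difference at this locus cannot be told apart in this design. Of the neighbours, Fgfbp3 encodes a secreted protein that binds fibroblast growth factors, Btaf1 an ATPase that removes the TATA-binding protein from DNA, and Cpeb3 an RNA-binding regulator of translation. Kif11 encodes a kinesin motor that pushes the spindle poles apart in mitosis, Hhex a homeobox transcription factor needed in early blood and lymphoid development, and Exoc6 a subunit of the exocyst, which tethers secretory vesicles to the plasma membrane.

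The promoters of the 4 genes whose KO-titled libraries all lay above both WT libraries are shown, a choice made from their values. Such a separation was found in 16.5% of all tested genes. Fgfbp3, Btaf1 and Kif11 did not pass the edgeR test given below. No test result is given for Ide, which was chosen for its difference. Each is the 250 bases before the RefSeq gene start in GRCm38.p6, a later build than the mm9 named for the counts, written 5′ to 3′ on the gene's own strand. Capitals mark matches on either strand to 5 motifs, chosen after the sequences were seen. These were the TATA box TATAAA, the CCAAT box, the GC box GGGCGG, the ETS-type motif CCGGAAG and the cyclic AMP response element TGACGTCA. The windows are chr19:37334545-37334794 on the minus strand for Ide, chr19:36919600-36919849 on the minus strand for Fgfbp3, chr19:36925829-36926078 on the plus strand for Btaf1 and chr19:37376132-37376381 on the plus strand for Kif11.
Ide: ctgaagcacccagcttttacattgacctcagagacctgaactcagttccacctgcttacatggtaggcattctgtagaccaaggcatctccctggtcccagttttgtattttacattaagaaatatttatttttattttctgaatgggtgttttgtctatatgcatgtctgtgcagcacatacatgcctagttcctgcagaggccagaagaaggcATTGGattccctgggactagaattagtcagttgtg
Fgfbp3: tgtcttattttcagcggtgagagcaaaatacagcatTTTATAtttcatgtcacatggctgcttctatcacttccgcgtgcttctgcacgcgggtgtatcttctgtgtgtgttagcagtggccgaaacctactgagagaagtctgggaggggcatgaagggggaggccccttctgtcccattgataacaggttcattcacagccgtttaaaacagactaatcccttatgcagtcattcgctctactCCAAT
Btaf1: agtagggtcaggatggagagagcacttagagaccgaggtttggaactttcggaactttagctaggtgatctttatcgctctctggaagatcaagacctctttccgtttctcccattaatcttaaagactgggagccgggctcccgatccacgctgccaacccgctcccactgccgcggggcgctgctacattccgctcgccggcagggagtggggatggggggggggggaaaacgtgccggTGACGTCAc
Kif11: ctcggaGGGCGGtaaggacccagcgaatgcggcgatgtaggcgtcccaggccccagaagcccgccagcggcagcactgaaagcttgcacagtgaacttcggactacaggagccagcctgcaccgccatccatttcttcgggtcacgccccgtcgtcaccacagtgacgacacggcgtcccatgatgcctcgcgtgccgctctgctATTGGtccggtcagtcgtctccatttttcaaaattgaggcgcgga

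The windows were picked by gene symbol and were not matched to the start of the transcript counted. The Ide window may thus not be the promoter of that transcript. This window held 0 CG dinucleotides and a GC content of 42.8%. Medians were 6 and 52.4% over 32851 RefSeq promoters of the same length, 92.1% of which held at least 1 CG dinucleotide. The Fgfbp3 window held 8 CG dinucleotides, the Btaf1 window 17 and the Kif11 window 24. Ide, Fgfbp3 and Kif11 each held 1 match to CCAAT, which 33.8% of these promoters hold. Btaf1 held 1 match to TGACGTCA, which 1.55% hold. Fgfbp3 held 1 match to TATAAA, which 12.4% hold, and Kif11 held 1 match to GGGCGG, which 32.7% hold. CCGGAAG, which 6.91% of promoters hold, had 0 matches in the 4 windows. No motif of the 5 was present in all 4 windows, which describes only the letters in them. Members not shown also held matches. GGGCGG had 3 in Cpeb3 (the first of 3 listed promoters), 3 in Hhex and 5 in Exoc6, and Hhex held 1 match to CCAAT.

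Levels are given as CPM, which are counts scaled to a library size of 1000000 after TMM adjustment. Library totals, with 1 transcript kept per gene, ran from 36060320 to 39691066 counts in KO-titled libraries, against 29964556 and 38674416 counts in WT libraries. The 8 LSK markers summed to 4309 to 4554 CPM in KO-titled and 4419 to 4427 CPM in WT libraries, led by Cd34 and Kit. The 7 counted markers of lineage-positive cells summed to 53.3 to 101 CPM in KO-titled and 104 to 108 CPM in WT libraries, mostly Itgam. By edgeR's quasi-likelihood test and by DESeq2, 0 of these 15 markers changed, where 1.97% and 3.41% of all genes did. At an unadjusted p under 0.05 there were 2 LSK markers (Ly6a and Hlf) and 0 lineage markers, against 13.8% of all tested genes. Itgam, a myeloid integrin gene, stood at 38.7, 54.6 and 85.9 CPM in KO libraries 1, 2 and 3, against 96.4 and 91.7 CPM in WT libraries 1 and 2 (adjusted p = 0.456 by edgeR), and it fell by edgeR when KO library 3 was omitted and under the replicate block. The part of these markers in the results was not tested. In bulk RNA, fewer cells of a type and less RNA per cell cannot be told apart.

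The Ide transcript level in the KO-titled libraries was 1.96 times the WT level. It had 21939, 24461 and 24943 counts in KO libraries 1, 2 and 3, against 10030 and 11740 counts in WT libraries 1 and 2. This was 607, 626 and 632 CPM in KO libraries 1, 2 and 3, against 335 and 300 CPM in WT libraries 1 and 2. All KO-titled libraries were high and close to each other, both WT libraries were low, and the groups did not overlap. The means were 622 ± 12.6 CPM in KO-titled and 317 ± 24.2 CPM in WT libraries (SD, n = 3 and n = 2). On the log2 scale the fold change was 0.97 ± 0.08 (SE), a value that choosing Ide for its difference can inflate. With each library left out in turn, it lay between 0.89, without WT library 2, and 1.05, without WT library 1. A log2 fold change at least that of Ide was found in 482 of 14565 tested genes, Ide included.

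**Figure D1:**
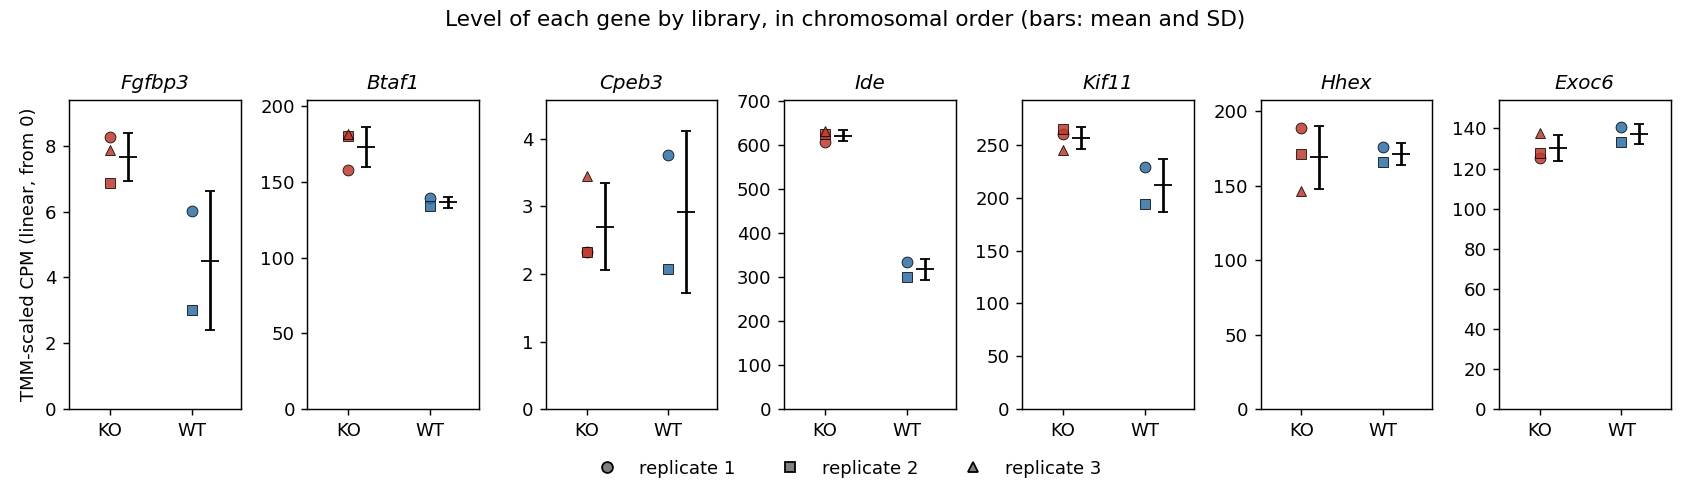
TMM-scaled CPM of the 7 genes (y axes, linear and each from 0) in the KO-titled and WT libraries (x axes), with a point per library and bars for mean and SD. The KO-titled libraries lie between 607 and 632 CPM for Ide, against 335 and 300 CPM in WT, while the groups overlap for Cpeb3, Hhex and Exoc6.

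Fgfbp3 had the next highest log2 fold change of the 7 genes, at low counts. It had 299, 268 and 311 counts in KO libraries 1, 2 and 3, against 180 and 118 counts in WT libraries 1 and 2. This was 8.28, 6.86 and 7.87 CPM in KO libraries 1, 2 and 3, against 6.00 and 3.02 CPM in WT libraries 1 and 2. The groups did not overlap, but the WT libraries lay far apart and WT library 1 came close to KO library 2. The means were 7.67 ± 0.732 CPM in KO-titled and 4.51 ± 2.11 CPM in WT libraries. The log2 fold change of 0.77 ± 0.32 (95% interval 0.08 to 1.47) did not pass edgeR's quasi-likelihood test over all genes (adjusted p = 0.305 by edgeR, unadjusted p = 0.0324). It was 1.35 without WT library 1 and 0.35 without WT library 2, so its size depended on which WT library was used. Ide counts were 73.4, 91.3 and 80.2 times those of Fgfbp3 in KO libraries 1, 2 and 3, against 55.7 and 99.5 times in WT libraries 1 and 2, and these ratios overlapped between the groups.

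Between Fgfbp3 and Ide lie Btaf1, Cpeb3 and Marchf5, a mitochondrial ubiquitin ligase gene that is not among the 7. Btaf1 stood at 158, 180 and 181 CPM in KO libraries 1, 2 and 3, against 139 and 134 CPM in WT libraries 1 and 2. The groups did not overlap, with KO library 1 nearest to WT. The log2 fold change of 0.34 ± 0.09 (95% interval 0.14 to 0.54) did not pass (adjusted p = 0.0923 by edgeR). It passed without KO library 1 (log2 fold change 0.41, adjusted p = 0.00345 by edgeR), with DESeq2 (adjusted p = 0.0286) and with no count filter (adjusted p = 0.0386 by edgeR), and its adjusted p reached 0.498 without WT library 1.

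Cpeb3 had the fewest counts of the 7, with 84, 91 and 136 counts in KO libraries 1, 2 and 3, against 113 and 81 counts in WT libraries 1 and 2. This was 2.33, 2.33 and 3.44 CPM in KO libraries 1, 2 and 3, against 3.77 and 2.07 CPM in WT libraries 1 and 2. The groups overlapped. The log2 fold change of -0.11 ± 0.44 had a 95% interval of -1.05 to 0.84 and turned to 0.39 without WT library 1. Marchf5, which directly precedes Ide, stood at 59.9, 45.0 and 47.3 CPM in KO libraries 1, 2 and 3, against 53.8 and 49.8 CPM in WT libraries 1 and 2. Its groups overlapped, and its log2 fold change of -0.03 ± 0.13 had a 95% interval of -0.32 to 0.26 (adjusted p = 0.955 by edgeR), with a sign that turned under 5 alternatives. The annotated ranges of Cpeb3 and Marchf5 overlap, and strand use in the counting was not stated, so reads in the overlap cannot be told apart.

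On the other side of Ide, Kif11 came first, then Hhex and Exoc6. Kif11 stood at 261, 265 and 245 CPM in KO libraries 1, 2 and 3, against 229 and 194 CPM in WT libraries 1 and 2. Its groups did not overlap, and the log2 fold change of 0.28 ± 0.09 (95% interval 0.08 to 0.48) did not pass (adjusted p = 0.18 by edgeR, 0.109 by DESeq2). It was 0.41 without WT library 1 and 0.16 without WT library 2. Hhex stood at 189, 171 and 147 CPM in KO libraries 1, 2 and 3, against 176 and 166 CPM in WT libraries 1 and 2. The WT values lay inside the KO-titled range, and the log2 fold change was -0.02 ± 0.11 with a 95% interval of -0.25 to 0.21, turning sign under 3 alternatives. Exoc6 stood at 125, 128 and 138 CPM in KO libraries 1, 2 and 3, against 141 and 133 CPM in WT libraries 1 and 2. The groups overlapped, with a log2 fold change of -0.07 ± 0.09 and a 95% interval of -0.27 to 0.12.

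Of the 6 neighbours, 0 changed by edgeR at an adjusted p under 0.05, where 1.97% of all 14565 tested genes did, and 1, Btaf1, changed with DESeq2, where 3.41% of 15040 genes did. At an unadjusted p under 0.05 there were 3 of 6 (Fgfbp3, Btaf1 and Kif11), against 13.8% of all tested genes. The same 3 of 6 had all KO-titled libraries above both WT libraries, against 16.5% of all tested genes, and 0 of 6 had them all below, against 16.3%. The median log2 fold change of the 6 was 0.13, beside 0.001 over all tested genes. These 6 genes share a chromosome region and were listed with earlier results known, so the counts describe them only.

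The wider neighbourhood held the 15 protein-coding genes before and the 15 after Ide in gene order. Of these 30, 29 were in the count table and 21 had enough counts for the test. Of the 8 others, 5 were at 0 in every library, and the highest count of any was 17. By edgeR 0 of the 21 rose and 1 fell, where 0.79% of all tested genes rose and 1.18% fell, and 5 (Fgfbp3, Btaf1, Kif11, Myof and Slc35g1) had an unadjusted p under 0.05, against 13.8% of all tested genes. All KO-titled libraries lay above both WT libraries in 7 of the 21, against 16.5% of all tested genes, and below both in 2, against 16.3%. The median log2 fold change was 0.04, with 11 above 0 and 10 below. Tnks2, a tankyrase gene just beyond Fgfbp3, stood at 215 ± 7.90 CPM in KO-titled and 229 ± 5.89 CPM in WT libraries, with a log2 fold change of -0.09 ± 0.08.

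The gene that fell was Myof, the 6th gene beyond Ide, which encodes myoferlin, a membrane repair protein. Myof stood at 125, 124 and 118 CPM in KO libraries 1, 2 and 3, against 176 and 182 CPM in WT libraries 1 and 2. The groups were narrow and well apart, with a log2 fold change of -0.55 ± 0.08 (adjusted p = 0.00509 by edgeR). Leaving out WT library 1 (adjusted p = 0.199 by edgeR) or WT library 2 (adjusted p = 0.137 by edgeR) ended the call, with log2 fold changes of -0.56 and -0.53; each leaves 1 WT library that is assumed to vary like the rest. Slc35g1, the 14th gene beyond Ide and named after its values were seen, stood at 32.6 ± 4.87 CPM in KO-titled and 21.7 ± 2.68 CPM in WT libraries (log2 fold change 0.59 ± 0.16, adjusted p = 0.102 by edgeR and 0.0444 by DESeq2). Ffar4, also named after its values were seen, had the highest log2 fold change of the 21, 1.87 ± 0.98, at 5 to 51 counts (adjusted p = 0.435 by edgeR).

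**Figure D2:**
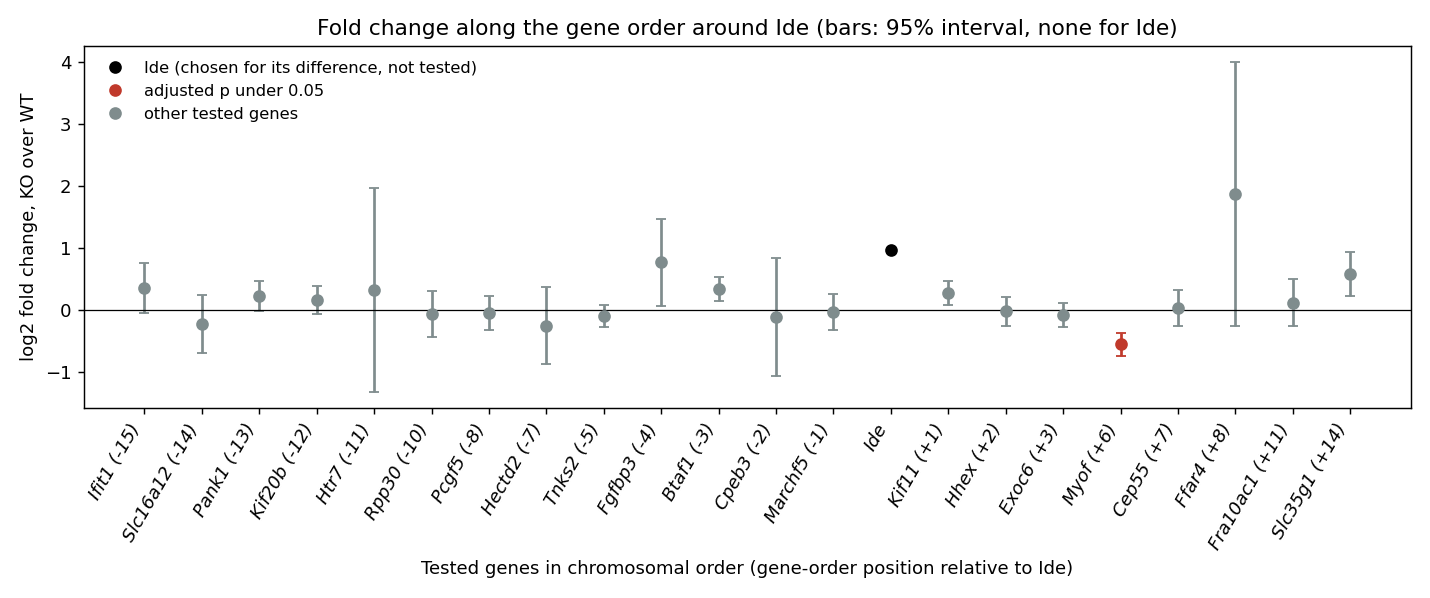
Log2 fold change of KO-titled over WT (y axis) for the tested genes around Ide in chromosomal order (x axis), with 95% intervals for all but Ide. Ide is at 0.97, its nearest neighbours Marchf5 and Kif11 are at -0.03 and 0.28, Fgfbp3 is at 0.77 and Myof at -0.55.

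Ratios of raw counts within a library do not depend on how libraries are scaled. Ide was set beside the 6 neighbours, Marchf5 and Tnks2, a choice made after their values were seen. Ide counts were 2.88, 2.79 and 3.0 times those of Tnks2 in KO libraries 1, 2 and 3, against 1.43 and 1.33 times in WT libraries 1 and 2. They were 10.1, 13.9 and 13.3 times those of Marchf5 in KO libraries 1, 2 and 3, against 6.22 and 6.03 times in WT libraries 1 and 2. Relative to Kif11 the ratio averaged 2.42 ± 0.133 in KO-titled and 1.5 ± 0.0624 in WT libraries, and relative to Exoc6 it averaged 4.78 ± 0.166 in KO-titled and 2.32 ± 0.0925 in WT libraries. The ratios to Tnks2, Btaf1, Cpeb3, Marchf5, Kif11, Hhex and Exoc6 were higher in every KO-titled library than in either WT library. The ratio to Fgfbp3 overlapped between the groups. In WT libraries 1 and 2 it was 55.7 and 99.5, on 180 and 118 Fgfbp3 counts, so these values were too far apart to place the KO-titled ratios. These ratios are a description without a test, since Ide was chosen for its difference.

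**Figure D3:**
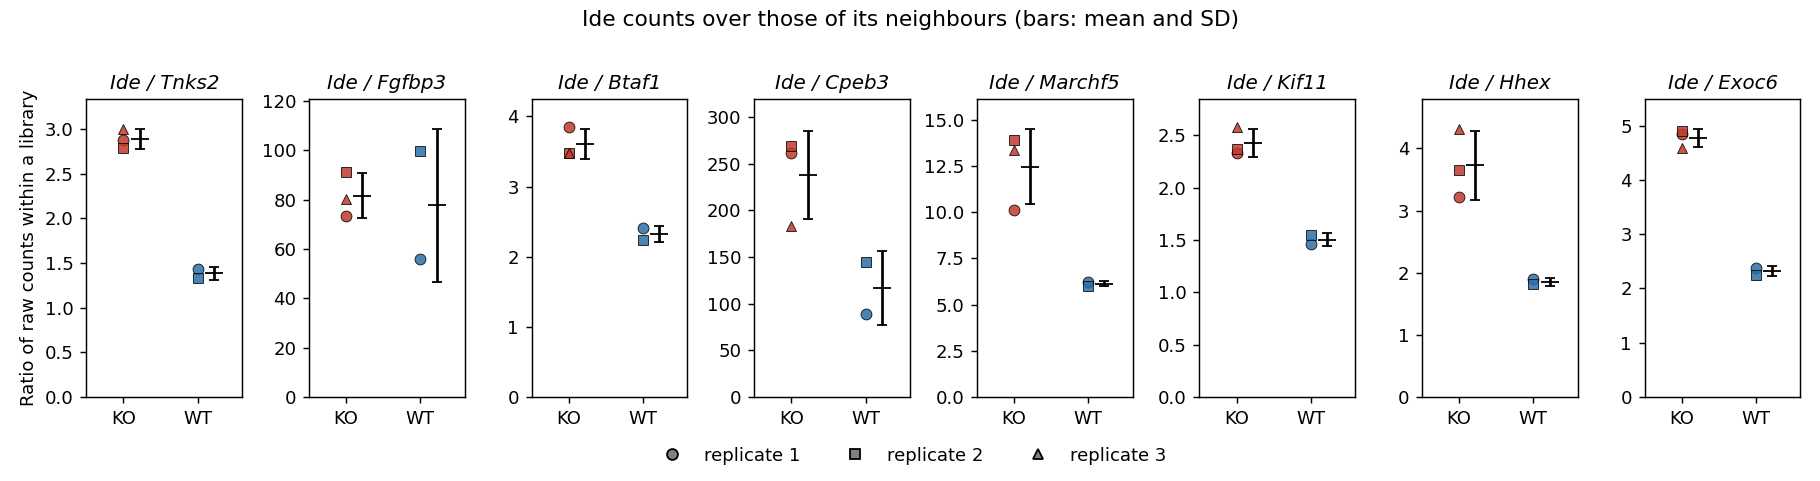
Raw counts of Ide divided by those of 8 nearby genes in the same library (y axes, linear and each from 0), for KO-titled and WT libraries (x axes), with a point per library and bars for mean and SD. The KO-titled points lie above the WT points in all panels but that of Fgfbp3, where the WT ratios are far apart (55.7 and 99.5) and overlap them. For Tnks2 they run from 2.79 to 3.0 in KO-titled against 1.33 to 1.43 in WT libraries.

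Levels between genes were compared as CPM per kilobase of transcript. In KO-titled libraries the order was Ide (125 ± 2.55 CPM per kilobase), Hhex (93.7 ± 11.8), Kif11 (53.3 ± 2.13), Exoc6 (36.8 ± 1.84), Btaf1 (24.0 ± 1.83), Fgfbp3 (4.33 ± 0.413) and Cpeb3 (0.476 ± 0.114). In WT libraries Hhex (94.9 ± 4.07 CPM per kilobase) stood above Ide (64.0 ± 4.87), followed by Kif11 (43.9 ± 5.16), Exoc6 (38.7 ± 1.4), Btaf1 (18.9 ± 0.498), Fgfbp3 (2.55 ± 1.19) and Cpeb3 (0.515 ± 0.212). The order of Ide and Hhex thus differed between the groups. In WT libraries 1 and 2, Kif11 (47.6 and 40.3 CPM per kilobase) and Exoc6 (39.7 and 37.7 CPM per kilobase) lay close together, with means about 1 SD of Kif11 apart.

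**Figure D4:**
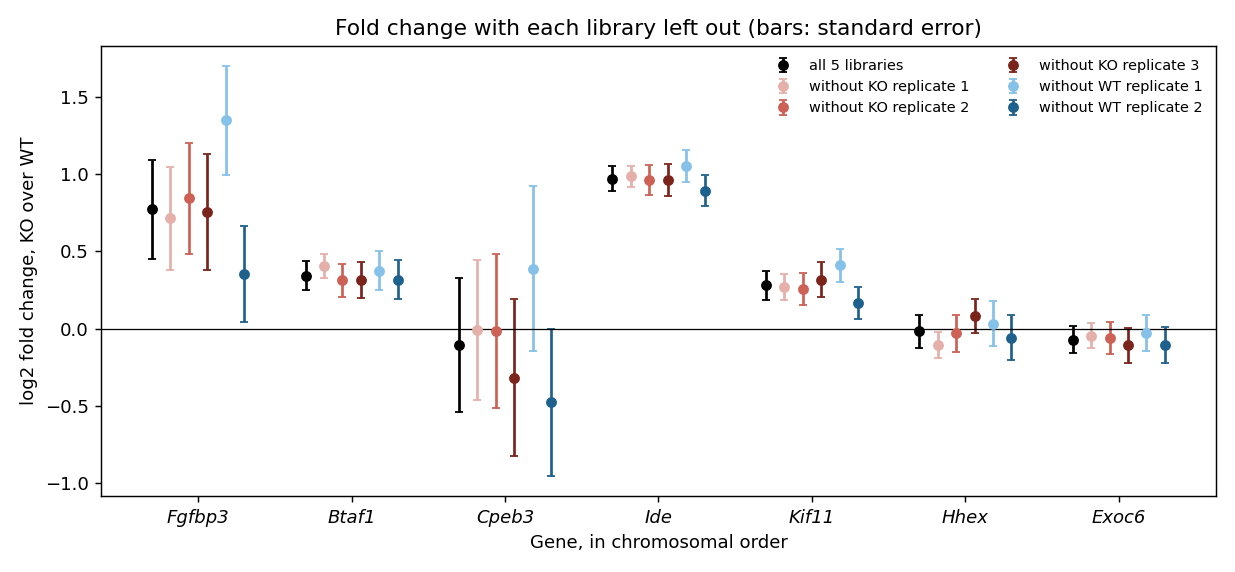
Log2 fold change of KO-titled over WT (y axis, bars for the standard error) for the 7 genes in chromosomal order (x axis), with all 5 libraries and with each library left out. Ide stays between 0.89 and 1.05, while Fgfbp3 ranges from 0.35 without WT library 2 to 1.35 without WT library 1.

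Among relatives of Ide, 6 other M16 metalloproteases were tested. Over all genes, 1.97% changed by edgeR, 3.41% changed by DESeq2 and 13.8% had an unadjusted p under 0.05. Of these 6 relatives, 0 changed by either tool and 0 had such a p, counts near those shares for so short a list. The log2 fold changes of the 6 ran from -0.06 to 0.17, with a median of 0.07. Highest in CPM were Nrd1, a protease that cuts at paired basic residues, at 276 ± 12.6 CPM in KO-titled and 265 ± 1.46 CPM in WT libraries, and Uqcrc2, a core subunit of respiratory complex III, at 260 ± 9.85 CPM in KO-titled and 257 ± 11 CPM in WT libraries. Of 9 tested other enzymes known to degrade insulin or amyloid beta, 0 changed by either tool (median log2 fold change -0.07). Mmp2 and Mmp9, 2 of the 9, had an unadjusted p under 0.05, against 13.8% of all tested genes. The lysosomal protease Ctsd stood at 524 ± 29.8 CPM in KO-titled and 539 ± 1.11 CPM in WT libraries, and Ctsb at 342 ± 28.6 CPM in KO-titled and 359 ± 1.52 CPM in WT libraries. The insulin genes Ins1 and Ins2 were at 0 in all 5 libraries.

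Of 16 tested genes of insulin and IGF signalling, 0 changed by edgeR and 2 by DESeq2, where 1.97% and 3.41% of all genes did. An unadjusted p under 0.05 was found for 3, against 13.8% of all tested genes. The median log2 fold change of the 16 was -0.05. The 2 called by DESeq2, named after their values were seen, were the receptor genes Igf2r (log2 fold change 0.44 ± 0.11, adjusted p = 0.0674 by edgeR) and Igf1r (log2 fold change -0.30 ± 0.08, adjusted p = 0.0916 by edgeR), and both also changed by edgeR without KO library 1. Highest in CPM were Pik3r1, the third of those 3 and a regulatory subunit of PI3 kinase, at 343 ± 6.49 CPM in KO-titled and 390 ± 7.15 CPM in WT libraries, and the kinase Akt1 at 324 ± 27.0 CPM in KO-titled and 317 ± 4.93 CPM in WT libraries. Insr, the insulin receptor gene, named after its values were seen, stood at 86.6 ± 9.12 CPM in KO-titled and 97.1 ± 1.67 CPM in WT libraries.

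Partners of the neighbours were examined in the same way. Of 15 tested mitotic kinesins and spindle partners, Kif11 included, 0 changed by edgeR and 4 by DESeq2, and 8 had unadjusted p under 0.05. Over all genes, 1.97% changed by edgeR, 3.41% changed by DESeq2 and 13.8% had such a p. The median log2 fold change of this list was 0.26, beside 0.28 for Kif11. Tpx2, a spindle assembly factor, stood at 268 ± 15.7 CPM in KO-titled and 216 ± 28.2 CPM in WT libraries (log2 fold change 0.31 ± 0.10, adjusted p = 0.149 by edgeR). Without KO library 1, 4 of the 15 changed by edgeR, and these, Kif18b, Kif23, Kif2c and Prc1, were also the 4 called by DESeq2. Of 6 genes of TBP regulation, 0 changed by edgeR and 1, Btaf1, by DESeq2, and Btaf1 was also the 1 gene with an unadjusted p under 0.05 (median 0.04). Taf1, the largest subunit of TFIID, had the highest CPM of these, at 193 ± 6.39 CPM in KO-titled and 197 ± 14.1 CPM in WT libraries.

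For the lists that follow, the shares over all genes were 1.97% changed by edgeR, 3.41% changed by DESeq2 and 13.8% at unadjusted p under 0.05. With so few genes per list, a count of 0 lies near these shares. Of 9 exocyst subunits 0 changed by either tool and 0 had an unadjusted p under 0.05 (median log2 fold change 0.02). Beside Exoc6 the highest in CPM was Exoc4, at 129 ± 9.05 CPM in KO-titled and 125 ± 12.5 CPM in WT libraries. Of 3 tested CPEB genes 0 changed by either tool and 0 had an unadjusted p under 0.05 (median -0.19). Cpeb4 stood at 15.8 ± 3.91 CPM in KO-titled and 18.0 ± 1.98 CPM in WT libraries, and Cpeb2 at 7.87 ± 1.01 CPM in KO-titled and 9.04 ± 0.191 CPM in WT libraries. Of 5 tested FGF binding proteins, receptors and ligands, Fgfbp3 included, 0 changed by edgeR or DESeq2 (median 0.36). Among these 5, 2 (Fgfbp3 and Fgfr1) had an unadjusted p under 0.05, against 13.8% of all tested genes. The receptor gene Fgfr1 stood at 22.3 ± 2.96 CPM in KO-titled and 32.2 ± 0.0498 CPM in WT libraries, and changed by edgeR without KO library 1, while Fgfrl1, a receptor-like gene, stood at 13.9 ± 0.660 CPM in KO-titled and 10.8 ± 3.16 CPM in WT libraries.

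Among 15 haematopoietic transcription factors, Hhex and genes that act beside it, 1 rose by edgeR and 0 fell (median log2 fold change of the 15, 0.04). Of the 15, 3 (Gfi1b, Runx1 and Spi1) had an unadjusted p under 0.05. Over all tested genes 0.79% rose, 1.18% fell and 13.8% had such a p. The gene that rose was Gfi1b, which encodes a transcriptional repressor that acts within the red cell and megakaryocyte lineages. It stood at 94.5 ± 9.73 CPM in KO-titled and 55.4 ± 8.40 CPM in WT libraries (log2 fold change 0.77 ± 0.12, adjusted p = 0.00657 by edgeR). Without WT library 1 its adjusted p by edgeR was 0.255, and without WT library 2 it was 0.0811, so either omission ended the call.

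Of the genes known to differ between C57BL/6 substrains, apart from Ide and Fgfbp3, 8 were tested (median log2 fold change 0.06). Of these 8, 0 changed by edgeR or DESeq2 and 0 had an unadjusted p under 0.05. Over all genes, 1.97% changed by edgeR, 3.41% changed by DESeq2 and 13.8% had such a p. Cyfip2, a cytoskeletal regulator, stood at 679 ± 78.5 CPM in KO-titled and 668 ± 6.37 CPM in WT libraries, and Mmrn1, which encodes multimerin, at 383 ± 83.6 CPM in KO-titled and 356 ± 33.6 CPM in WT libraries. A known substrain variant need not alter a gene's mRNA level, and the part of substrain in these values was not tested.

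The 5 genes whose profile over the 5 libraries was most like that of Ide lay on other chromosomes. How many of the genes ranked lie on chromosome 19 was not counted, so this describes those 5 only. Likeness was the root-mean-square difference between log2 CPM profiles centred on their own means, over 9780 other genes with a mean of at least 10 CPM. The nearest were Hspa8 on chromosome 9 (0.0999), Banp on chromosome 8 (0.102), Tgtp1 on chromosome 11 (0.104), Ebi3 on chromosome 17 (0.106) and Tra2a on chromosome 6 (0.123). Hspa8, a chaperone gene, stood at 609, 581 and 610 CPM in KO libraries 1, 2 and 3, against 336 and 343 CPM in WT libraries 1 and 2. Btaf1 ranked 282 and Kif11 476 by this measure, Hhex 5777 and Exoc6 6064, while Fgfbp3 and Cpeb3 were below the 10 CPM minimum. This likeness includes the difference for which Ide was chosen.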

How the data were processed

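Bone marrow LSK cells were sequenced as mRNA, with a strand-preserving kit, per the labels' protocols. The authors deposited raw read counts per RefSeq transcript, 33862 in all, in 5 libraries grouped here by title (3 KO, 2 WT). STAR, Subread 1.4.5-p1, featureCounts and mm9 (NCBIM37) are named in the submitters' processing notes; their settings, strand use and handling of shared reads are not stated.

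Accessions took names from the RefSeq table of GRCm38 (33485) or GENCODE (188), or stayed unnamed (189). The transcript with the most counts stood for each gene, giving 24399 genes. Among the members Cpeb3 alone had several transcripts, with identical counts. A floor of 3 counts equals 0.0756 to 0.1 CPM. Gene order came from the RefSeq table, and lengths from GENCODE transcripts paired with each accession.

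After filterByExpr, 14565 genes entered edgeR 4.0.16 in R 4.3.3 (TMM, robust quasi-likelihood, two-sided, Benjamini-Hochberg over all tested genes, threshold 0.05), tested on simulated data. Members, lists and tests were chosen with earlier results of these data known. The genes named were the members, the called and nearest window genes, the called genes of each list or else the 2 highest in CPM, and the 5 profiles most like Ide, plus those said to be picked after seeing values. Alternatives were DESeq2 1.42.0, other scalings, no count filter, summed or lowest transcripts, an unadjusted threshold, the replicate number as a term, and omission of each library. With 3 and 2 libraries, precision is limited. Results for some genes are not reported here.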

Additional observations from a re-analysis of the deposited data

How the results depend on the processing

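Over all genes 287 changed. The number was 455 with no count filter, 513 with DESeq2, 160 under the replicate block and 2007 when p was not adjusted. Omission of 1 library moved it over a range from 6 to 675: 6 when WT library 1 was omitted, 18 for WT library 2, 135 for KO library 3 and 675 for KO library 1. In the window around Ide 1 gene changed, against 3 with no count filter, 3 with DESeq2, 5 at an unadjusted p under 0.05 and 0 to 2 with 1 library omitted. Of the 6 neighbours 0 changed, against 1 with no count filter, 1 with DESeq2, 3 at an unadjusted p under 0.05 and 0 to 1 with 1 library omitted. Window and neighbour counts were the same under the replicate block, and 142 of its 160 genes were among the 287. The labels do not tie libraries of the same number, and their deviations correlated at 0.043 for number 1 and 0.017 for number 2. KO library 3 correlated at 0.038 with WT library 2, whose number differs. With 2 WT libraries the WT deviations mirror each other, so these values cannot show whether libraries are paired. Some log2 fold changes near 0 turned sign. Hhex was 0.074 under the replicate block, and from -0.10 (KO library 1) to 0.080 (KO library 3) with 1 library omitted, including 0.032 for WT library 1. Cpeb3 ranged from -0.48 (WT library 2) to 0.39 (WT library 1). Marchf5 was 0.00704 with summed transcripts and 0.00583 under the replicate block, and ranged from -0.16 (KO library 1) to 0.049 (KO library 2), including 0.024 for KO library 3 and 0.032 for WT library 1. Ide ranged from 0.89 to 1.05 over the 13 alternatives with a fit. Omitting a library leaves fewer samples; other causes of these shifts were not tested. Depth limits Fgfbp3 (118 to 311 counts) and Cpeb3 (81 to 136 counts) most.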
